A study of Mus musculus with 15 samples.

Results

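The mRNAs of 5 subunits of the phagocyte NADPH oxidase (Cybb, Cyba, Ncf1, Ncf4 and Rac2) were followed over the 5 conditions of an RNA-Seq experiment on murine bone marrow-derived macrophages (BMDMs). The subunits were taken as a list of gene symbols, and each was matched to 1 of the 51763 gene identifiers of the count table through the mouse annotation GENCODE M21. The experiment asked how the redox isoforms of HMGB1, a nuclear protein that acts as an alarm signal once outside the cell, change macrophage gene expression. Marrow came from wild-type female C57BL/6NTac mice of 8 to 10 weeks and was matured with M-CSF, and the BMDMs of 5 mice were pooled before seeding. Cultures were stimulated for 24 h with PBS as the control, with 5 µg/mL of fully reduced HMGB1 (frHMGB1), with 5 µg/mL of disulfide HMGB1 (dsHMGB1), with 1 µg/mL of the bacterial lipopolysaccharide LPS-EK (LPS), or with LPS-EK and 20 ng/mL IFNγ (LPS/IFNγ). The LPS dose of the LPS/IFNγ cultures is given as 1 µg/mL in the treatment field of the samples and as 100 ng/mL in their protocol. frHMGB1 was made in buffers with the reducing agent DTT and dsHMGB1, which came from another laboratory, in buffers without it, and none of the groups analysed here received DTT alone. Each condition had 3 libraries. They are technical replicates of 1 pool, so the SDs, intervals and adjusted p below hold no information on how mice differ from each other.

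The phagocyte NADPH oxidase, NOX2, moves electrons from cytosolic NADPH across a membrane onto oxygen and so makes superoxide, the source of the oxidative burst by which macrophages and neutrophils attack ingested microbes. Its catalytic core is a membrane heterodimer of gp91phox, encoded by Cybb, and p22phox, encoded by Cyba, and each partner stabilises the other. The core is inactive at rest. On stimulation the cytosolic organiser p47phox (Ncf1) is phosphorylated and moves to the membrane with p40phox (Ncf4) and other cytosolic partners, where a GTP-bound Rac protein, Rac2 in many leukocytes, completes the enzyme. Loss of function in Cybb, Cyba, Ncf1 or Ncf4 causes chronic granulomatous disease. The level of an mRNA says nothing of the assembly or activity of the enzyme, which were not measured in these libraries.

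On GRCm38, Cybb lies on the minus strand at chrX:9435252-9487771, Cyba on the minus strand at chr8:122424776-122432930 and Ncf1 on the minus strand at chr5:134220053-134229625. Ncf4 lies on the plus strand at chr15:78244801-78262580 and Rac2 on the minus strand at chr15:78559167-78572783. All 5 are protein-coding. The exons of Ncf1 share 408 bases with Gtf2ird2 on the opposite strand, and 7.45% of the 50-base words of its transcripts also occur in another gene, so reads from that stretch cannot be told apart unless the counting used strand, which is not stated. For Cybb and Ncf4 this share was 0%, for Rac2 1.29% and for Cyba 2.39%. The 250 bases before the RefSeq transcription start (GRCm38.p6, read 5′ to 3′ on the strand of the gene) are shown for Cybb, Cyba and Ncf1. Promoter sequences of Ncf4 and Rac2 were not available in the source used. The start used for Cybb lies inside the span that GENCODE gives the gene. Capitals mark the letters that match any of 3 motifs searched on both strands, the PU.1 core GAGGAA, the IRF element as GAAANNGAA and an NF-kB site as GGGANTTTC.
Cybb, chrX:9469325-9469574: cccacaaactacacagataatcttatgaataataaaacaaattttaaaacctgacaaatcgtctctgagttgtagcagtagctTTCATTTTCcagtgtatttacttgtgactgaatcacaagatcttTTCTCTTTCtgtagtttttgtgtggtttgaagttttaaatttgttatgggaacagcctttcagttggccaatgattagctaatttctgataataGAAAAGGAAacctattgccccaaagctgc
Cyba, chr8:122432941-122433190: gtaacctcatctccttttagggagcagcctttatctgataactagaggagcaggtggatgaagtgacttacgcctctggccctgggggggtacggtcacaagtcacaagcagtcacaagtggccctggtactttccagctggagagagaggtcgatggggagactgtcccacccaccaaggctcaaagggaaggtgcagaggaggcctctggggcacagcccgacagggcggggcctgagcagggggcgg
Ncf1, chr5:134229626-134229875: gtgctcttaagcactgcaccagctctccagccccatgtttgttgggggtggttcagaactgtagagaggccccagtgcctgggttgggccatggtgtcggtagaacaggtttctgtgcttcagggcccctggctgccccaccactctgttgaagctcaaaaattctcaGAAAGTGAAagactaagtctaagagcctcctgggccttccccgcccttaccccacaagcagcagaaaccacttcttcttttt

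The Cybb sequence held 3 IRF elements, of which the match ending at position -21 before the start read on the strand of the gene and those at -167 and -123 on the opposite strand. A PU.1 core lay just after the start, at positions 10 to 15 on the opposite strand, outside the printed bases. The Ncf1 sequence held an IRF element at -82 to -74, on the strand of the gene. The Cyba window of 300 bases (250 before the start and 50 after it) held no match to any of the 3 motifs. Of 32851 mouse promoter windows of this length, 28.3% held the PU.1 core, 8.56% the IRF element and 1.11% the NF-kB site. Such matches describe letters and are not evidence of binding.

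The count table held 40934540 to 80925478 reads per library, and the 5 subunits took between 0.32% and 0.613% of them. The libraries had the markers of macrophages, with 0 of 8 markers at 0 and a summed level of 13500 to 27300 CPM (counts scaled to a common library total), from 21900 to 26200 in PBS to 13500 to 13900 in LPS/IFNγ. The 10 neutrophil markers summed to 2.01 to 5.65 CPM, nearly all from S100a8, with Ly6g, Mpo, Retnlg and S100a9 listed at 0 in every library. Of 8 lymphocyte markers, Cd4 made up nearly all of the 13.5 to 35.5 CPM and Cd3e, Cd3g, Cd8a and Ncr1 were listed at 0. The 6 erythroid markers summed to 0 to 0.351 CPM, the 5 dendritic cell markers to 3.35 to 15 CPM, with 4.11 to 5.17 in PBS and 13.8 to 15 in LPS/IFNγ, the 4 markers of mast cells and basophils to 0.256 to 2.69 CPM, highest in PBS, and the 5 fibroblast markers, led by Col1a1, to 118 to 282 CPM. The part of these marker levels in the results was not tested. PBS replicate 3 stood apart. Its correlation with the other PBS libraries fell to 0.933, whereas the lowest correlation within any other condition was 0.987. Relative to the mean of the other PBS libraries its log2 level was 1.74 higher in the median of 384 protein-coding genes whose longest transcript was under 1 kb and lower by -0.76 in the median of 3993 genes over 4 kb. Cyba, with a longest transcript of 744 bases, was 2.06 higher in that library and Cybb, with 4752 bases, was at -0.92. A smaller gradient of the same direction ran through dsHMGB1 replicate 1, from 0.36 in the shortest class to -0.20 in the longest, with Cyba at 0.37 and Cybb at -0.42, and dsHMGB1 replicate 2 had one of the opposite direction, from -0.29 to 0.15, with Cyba at -0.33 and Cybb at 0.34. The part of transcript length in the results below was not tested beyond these values, and the calls of the subunits are given with and without PBS replicate 3.

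**Figure D1:**
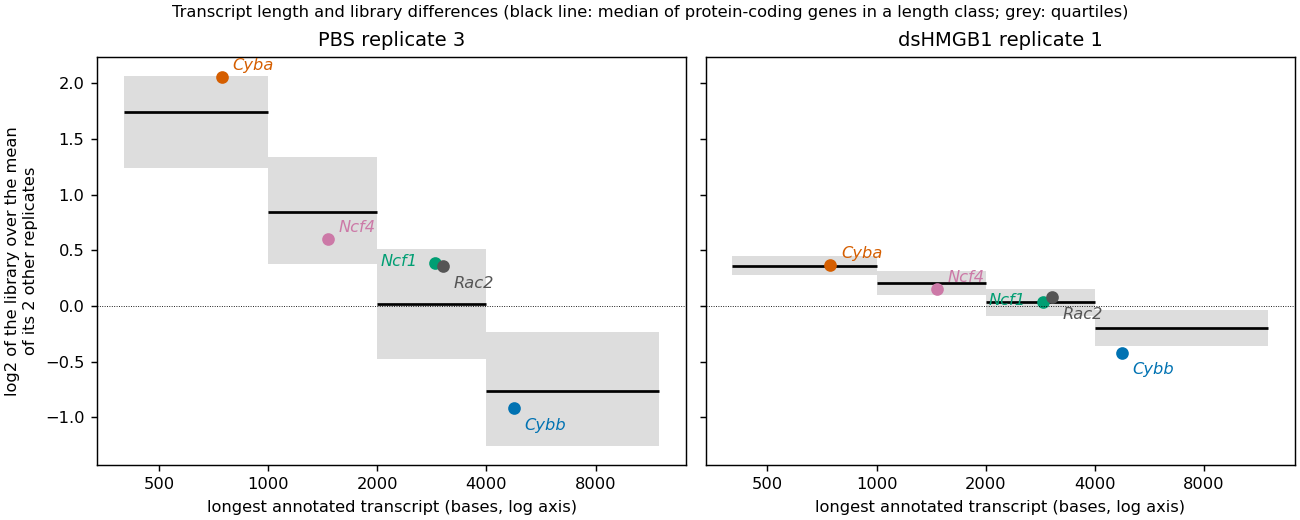
Log2 ratio of a library to the mean of the other replicates of its condition (y axis) against the longest annotated transcript (x axis, bases, log axis), for PBS replicate 3 and dsHMGB1 replicate 1. Black lines are medians and grey boxes quartiles of protein-coding genes in 4 length classes, of which the first and last are open-ended and drawn only in part, and points are the subunits: Cyba sits at 2.06 and Cybb at -0.92 in PBS replicate 3.

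Levels are given as normalized counts, that is, reads divided by the size factor that DESeq2 gave each library, and in bulk RNA a change in the cells that make a transcript and a change in the transcript per cell cannot be told apart. Cybb, the catalytic subunit, was the subunit whose condition means differed most, 4.36-fold from PBS to LPS/IFNγ. In PBS its normalized count was 64945, 70767 and 35774 in replicates 1, 2 and 3, and in frHMGB1 it was 71000, 65502 and 67859. In dsHMGB1 it was 175569, 249601 and 219505, in LPS 225199, 224943 and 221173, and in LPS/IFNγ 246325, 252550 and 248574. Every library of these 3 conditions lay above every PBS and frHMGB1 library, and the spread was greatest in PBS and dsHMGB1, the conditions that hold the libraries with a length gradient.

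Cyba, the membrane partner that anchors the cytosolic subunits, had a different course. Its normalized count was 36465, 32445 and 143921 in PBS and 46607, 47892 and 46958 in frHMGB1. It was 56148, 40827 and 46302 in dsHMGB1, 53363, 52713 and 55653 in LPS, and 36671, 36011 and 37535 in LPS/IFNγ. PBS replicate 3 was by far the highest of the 15 libraries. Without it, the mean was 34455 ± 2843 (SD, n = 2) in PBS, and every frHMGB1, dsHMGB1 and LPS library lay above both remaining PBS libraries.

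Ncf1, the organiser that is phosphorylated on activation, had a course like that of Cybb. Its normalized count was 12586, 12502 and 16449 in PBS and 13756, 13646 and 13285 in frHMGB1. It reached 34694, 33822 and 33849 in dsHMGB1, 30543, 30588 and 30736 in LPS, and 31657, 31035 and 31615 in LPS/IFNγ. The PBS and frHMGB1 libraries lay below all others, with no overlap.

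Ncf4, whose product binds membrane phosphoinositide and steadies the complex on phagosomes, peaked in dsHMGB1 and was lowest in LPS/IFNγ. Its normalized count was 8968, 8471 and 13196 in PBS, 11634, 11567 and 11484 in frHMGB1, 16852, 14460 and 16000 in dsHMGB1, 14278, 13673 and 13631 in LPS, and 8075, 8004 and 8530 in LPS/IFNγ. The LPS/IFNγ libraries overlapped the PBS libraries, whereas the dsHMGB1 and LPS libraries lay above all of PBS and frHMGB1.

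Rac2, the GTPase, had a course like that of Ncf4. Its normalized count was 13027, 12030 and 16048 in PBS, 14720, 14248 and 14133 in frHMGB1, 22548, 20881 and 21731 in dsHMGB1, 19771, 18681 and 20609 in LPS, and 12082, 11874 and 12569 in LPS/IFNγ. All dsHMGB1 libraries exceeded all LPS libraries, and the LPS/IFNγ libraries again overlapped PBS.

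**Figure D2:**
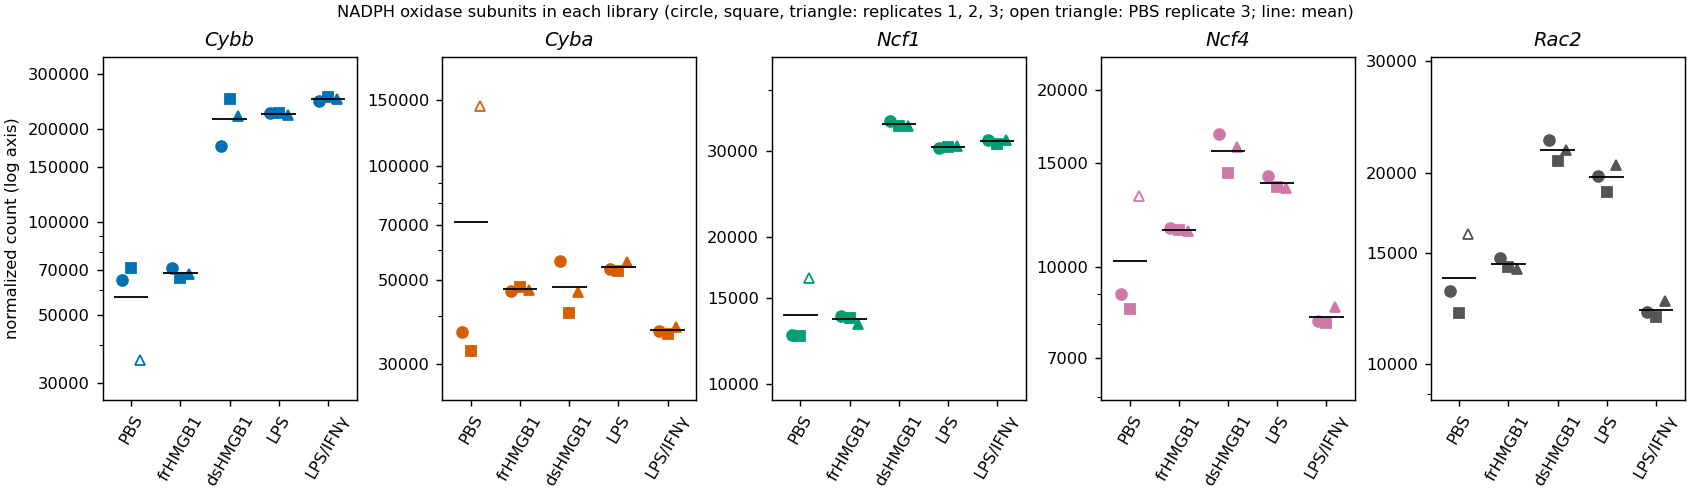
Normalized counts (log axis, a scale of its own for each gene) of the 5 subunits in each of the 15 libraries, with circles, squares and triangles for replicates 1, 2 and 3, an open triangle for PBS replicate 3 and a line for the mean of 3. On this scale Cybb and Ncf1 are high in dsHMGB1, LPS and LPS/IFNγ and Ncf4 and Rac2 are high in dsHMGB1 and LPS but not in LPS/IFNγ (scaling to library size alone puts Ncf4 and Rac2 in LPS below PBS), and the Cyba level of PBS replicate 3 (143921) exceeds all others.

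Over the 5 conditions together, 4 of the 5 subunits differed by the quasi-likelihood F test of edgeR, with Benjamini-Hochberg adjusted p of 1.75e-06 for Cybb, 7.07e-09 for Ncf1, 8.76e-05 for Ncf4 and 5.05e-06 for Rac2. Of all 16919 genes tested, 72.5% passed this test, so a pass was common among all genes. Cyba did not pass, with an adjusted p of 0.291. All 5 passed without PBS replicate 3, and the adjusted p of Cyba in edgeR was 6.85e-06. The share of all genes that passed in that fit was not determined. In the comparisons of pairs of conditions, a gene is called when its edgeR adjusted p is under 0.05, and the log2 fold changes (log2FC) with standard errors (SE) and 95% intervals are those of DESeq2. The 4 comparisons with PBS share its libraries and are not independent of each other. In the median of all genes, the DESeq2 log2FC was -0.01 for frHMGB1, -0.10 for dsHMGB1, -0.21 for LPS and -0.12 for LPS/IFNγ.

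Against PBS, frHMGB1 had 0 of the 5 subunits called by edgeR when all libraries were kept, and 0 passed at an unadjusted p under 0.05 or by DESeq2. Over all genes 1.31% were called higher and 5.69% lower. The log2FC was 0.25 for Cybb (SE 0.21, 95% interval -0.17 to 0.67), -0.59 for Cyba (-1.41 to 0.23), -0.03 for Ncf1 (-0.22 to 0.16), 0.18 for Ncf4 (-0.11 to 0.47) and 0.07 for Rac2 (-0.13 to 0.27). When PBS replicate 3 was left out, 3 subunits were called higher, beside 8.41% of all genes. They were Cyba with a log2FC of 0.46 (SE 0.10, edgeR adjusted p 0.00214), Ncf4 with 0.41 (SE 0.07, 0.00023) and Rac2 with 0.20 (SE 0.06, 0.0323). Cybb, at 0.01, and Ncf1, at 0.12, were not called in that fit.

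dsHMGB1 raised 4 of the 5 subunits against PBS, and 0 were called lower. Over all genes 23.3% were called higher and 24.2% lower. Cybb rose 3.76-fold, with a log2FC of 1.91 (SE 0.21, edgeR adjusted p 8.91e-06), and Ncf1 2.47-fold, with 1.30 (SE 0.10, 2.86e-08). The rises of Ncf4 and Rac2 were smaller, with log2FC of 0.63 (SE 0.15, edgeR adjusted p 0.000772) and 0.67 (SE 0.10, 3.32e-05). With only dsHMGB1 and PBS fitted, Ncf4 was not called (edgeR adjusted p 0.0524). Cyba had a log2FC of -0.57 (SE 0.42, 95% interval -1.39 to 0.25) and was not called. With PBS replicate 3 left out, all 5 were called higher, beside 29.8% of all genes, and 29% were called lower. The Cyba value then turned to 0.47 (SE 0.10, edgeR adjusted p 0.000458), and the others were 1.66 for Cybb, 1.44 for Ncf1, 0.85 for Ncf4 and 0.79 for Rac2.

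In LPS, the 4 subunits called in dsHMGB1 were also called higher against PBS and 0 lower, beside 26.7% and 36.2% of all genes. The log2FC was 1.97 for Cybb (SE 0.21, edgeR adjusted p 5.3e-06) and 1.15 for Ncf1 (SE 0.10, 1.02e-07). Ncf4 rose with 0.44 (SE 0.15, edgeR adjusted p 0.0126) and Rac2 with 0.52 (SE 0.10, 0.000419), but with counts scaled to library size alone both turned to the other side, -0.22 and -0.16 in edgeR, in a fit where the median gene moved from -0.27 to -0.89, and neither was then called. They were also not called with upper-quartile factors (edgeR log2FC of 0.09 and 0.17), and Ncf4 was not when only LPS and PBS were fitted (edgeR adjusted p 0.0805). Cyba, at -0.40 (95% interval -1.22 to 0.43), was not called. In the fit without PBS replicate 3 all 5 were called higher, with Cyba at 0.64 (SE 0.10, edgeR adjusted p 1.6e-05), beside 32.9% of all genes, and 38.3% were called lower.

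LPS/IFNγ split the subunits. Against PBS, 2 were called higher and 1 lower, beside 29% and 31.2% of all genes. Cybb rose 4.36-fold, with a log2FC of 2.12 (SE 0.21, edgeR adjusted p 2.05e-06), and Ncf1 2.27-fold, with 1.18 (SE 0.10, 4.81e-08). Ncf4 was called lower with -0.32 (SE 0.15, edgeR adjusted p 0.0291), a call that DESeq2 did not make (adjusted p 0.0529). Rac2 had -0.17 (SE 0.10, edgeR adjusted p 0.0754) and Cyba -0.95 (SE 0.42, 0.0532), which DESeq2 called (adjusted p 0.0388). Without PBS replicate 3, 2 were again called higher, Cybb with 1.87 and Ncf1 with 1.32, beside 33.3% of all genes. Ncf4 was again called lower by edgeR, with a smaller log2FC of -0.10 (SE 0.07, edgeR adjusted p 0.0329), beside 34.4% of all genes. DESeq2 did not make this call either (adjusted p 0.183), and the 95% interval of Ncf4 was -0.23 to 0.03. Cyba had 0.08 (95% interval -0.11 to 0.28).

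**Figure D3:**
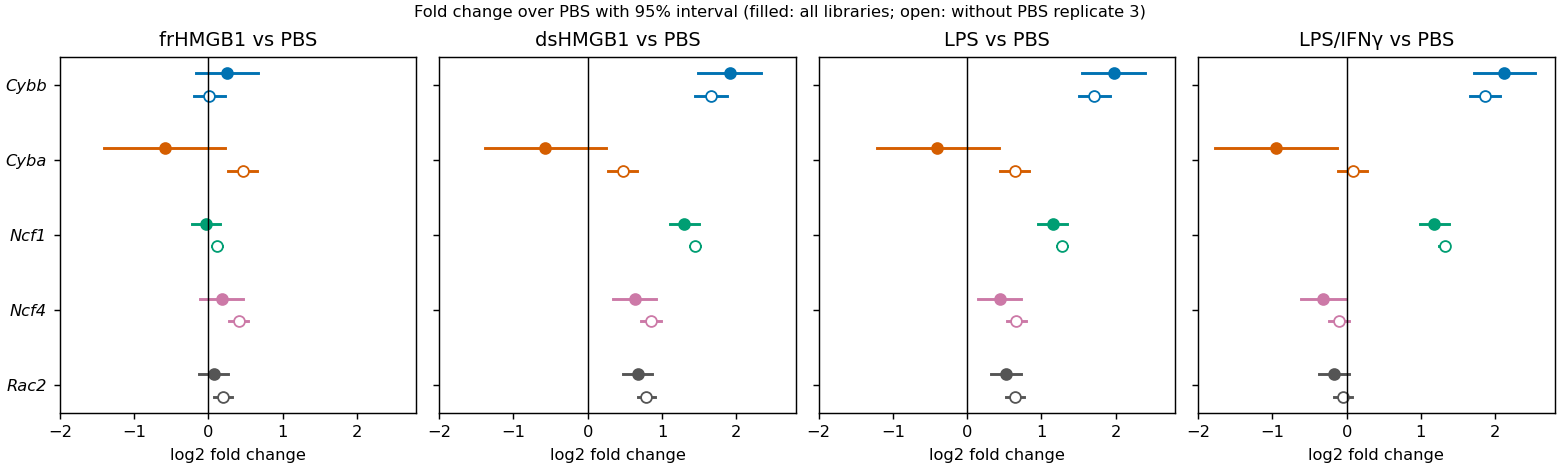
DESeq2 log2 fold change of each subunit over PBS (x axis) in the 4 stimulations, with 95% intervals, for all libraries (filled) and without PBS replicate 3 (open). Cyba moves from -0.57 to 0.47 in dsHMGB1 when that library is left out, while Cybb and Ncf1 stay above 1 in dsHMGB1, LPS and LPS/IFNγ. With counts scaled to library size alone, Ncf4 and Rac2 fall below 0 in LPS.

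The HMGB1 isoforms were compared at the same dose and time, and no PBS library enters the contrast, although all libraries share the estimate of spread. Between dsHMGB1 and frHMGB1, 4 of the 5 subunits were called higher in dsHMGB1 and 0 lower, beside 27.7% and 23.1% of all genes. The log2FC was 1.66 for Cybb (SE 0.21, edgeR adjusted p 3.11e-05), 1.33 for Ncf1 (SE 0.10, 2.97e-08), 0.60 for Rac2 (SE 0.10, 0.000115) and 0.45 for Ncf4 (SE 0.15, 0.0102). Cyba did not differ beyond its spread, with 0.02 (95% interval -0.81 to 0.84), an interval that narrowed to -0.16 to 0.19 without PBS replicate 3. The same 4 calls were made without that library, in a fit that called 6212 of 17339 genes higher and 5708 lower. With all libraries these numbers were 4688 and 3905 of 16919. With counts scaled to library size alone, Ncf4 (edgeR log2FC 0.04) and Rac2 (0.19) were not called, and Ncf4 was not called with upper-quartile factors either (log2FC 0.27).

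Between dsHMGB1 and LPS, 0 of the 5 subunits were called in either direction by edgeR, beside 15.8% of all genes called higher in dsHMGB1 and 10.6% lower. At an unadjusted p under 0.05, 2 of them, Ncf1 and Rac2, passed, with 0.0265 and 0.0437 in edgeR. DESeq2 also called 0. The 95% interval of the difference was -0.48 to 0.36 for Cybb, -0.04 to 0.35 for Ncf1, -0.10 to 0.48 for Ncf4 and -0.06 to 0.34 for Rac2, so differences of this size remain possible. The share of all genes whose libraries separate fully between these conditions was not determined. For Ncf1, Ncf4 and Rac2, all 3 dsHMGB1 libraries lay above all LPS libraries. In the fit without PBS replicate 3, which enters here only through the spread and the scaling, these 3 were called higher in dsHMGB1, with log2FC of 0.16, 0.19 and 0.15 and edgeR adjusted p of 0.00176, 0.00493 and 0.0143, beside 25.6% of all genes.

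Ncf4 and Rac2 separated dsHMGB1 from LPS/IFNγ. These 2 were called higher in dsHMGB1 and 0 subunits lower, beside 16.5% and 16.7% of all genes. Ncf4 was 1.92-fold higher, with a log2FC of 0.94 (SE 0.15, edgeR adjusted p 3.74e-05), and Rac2 1.78-fold, with 0.84 (SE 0.10, 5.94e-06). Cybb, at -0.21 (95% interval -0.63 to 0.21), and Ncf1, at 0.12 (-0.07 to 0.31), were not called. Leaving out PBS replicate 3 gave 4 subunits called higher, beside 27.9% of all genes, Cyba with 0.38 (SE 0.09, edgeR adjusted p 0.000261) and Ncf1 with 0.12 (SE 0.03, 0.00463) in addition to Ncf4 and Rac2.

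The same genes separated LPS/IFNγ from LPS, where 0 subunits were called higher and 2 lower in LPS/IFNγ, beside 16.3% and 9.36% of all genes. Ncf4 was lower with -0.76 (SE 0.15, edgeR adjusted p 0.000602) and Rac2 with -0.69 (SE 0.10, 9.54e-05). The interval was -0.26 to 0.57 for Cybb and -0.16 to 0.23 for Ncf1. Cyba had -0.55 (SE 0.42, edgeR adjusted p 0.386), and without PBS replicate 3 it became the third subunit called lower (SE 0.09, edgeR adjusted p 1.35e-05), beside 24.3% of all genes. The LPS/IFNγ libraries lay fully above the LPS libraries for Cybb and Ncf1, and fully below them for Cyba, Ncf4 and Rac2. The share of all genes that separate in this way was not determined. dsHMGB1 and LPS/IFNγ were each compared with LPS, and these comparisons share the LPS libraries.

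To compare levels between genes, normalized counts were divided by the length of the union of exons. In PBS, Cyba had the highest level per kb, followed by Cybb, Ncf4, Rac2 and Ncf1, and the same order held in frHMGB1. In dsHMGB1 and LPS, Ncf1 moved above Ncf4 and Rac2, to 9315 ± 135 and 8360 ± 27.6 normalized counts per kb (SD, n = 3). In LPS/IFNγ, Cybb, with 42898 ± 543, stood above Cyba, with 35360 ± 736. The ranges of neighbours overlapped for Ncf4 and Rac2 in PBS, dsHMGB1 and LPS/IFNγ, and for Cyba and Cybb in dsHMGB1. In PBS the ranges of Cybb and Ncf4 and of Rac2 and Ncf1 also overlapped. The placing of Rac2 and Ncf1 in PBS was exchanged when the longest transcript was used as the length.

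**Figure D4:**
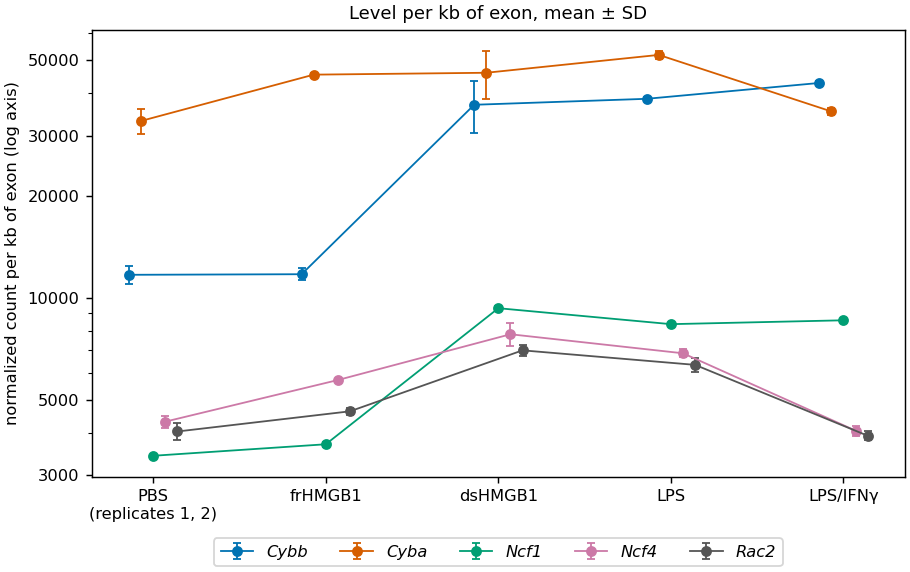
Normalized counts per kb of exon (log axis) of the 5 subunits by condition, as mean ± SD of 3 libraries, or of 2 for PBS, where replicate 3 is left out. The lines join the points of a gene: Cybb passes Cyba in LPS/IFNγ (42898 against 35360), and Ncf1 is the lowest in PBS and frHMGB1 and the third in the other conditions.

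Ratios within a library do not depend on how libraries are scaled. The ratio of Cybb to Cyba per kb was 0.319, 0.39 and 0.0445 in PBS, 0.273, 0.245 and 0.259 in frHMGB1, 0.559, 1.09 and 0.848 in dsHMGB1, 0.755, 0.763 and 0.711 in LPS, and 1.2, 1.25 and 1.18 in LPS/IFNγ. The libraries of dsHMGB1, LPS and LPS/IFNγ all lay above those of PBS and frHMGB1, also with PBS replicate 3 left out. The ratio of Ncf1 to Ncf4 was 0.638 to 0.652 in frHMGB1, 1.14 to 1.29 in dsHMGB1, 1.18 to 1.24 in LPS and 2.04 to 2.16 in LPS/IFNγ, against 0.687 to 0.814 in PBS. Per kb of exon, the organiser thus stood above Ncf4 in every library of dsHMGB1 and LPS, and further above it in LPS/IFNγ. The ratio of Rac2 to its close relative Rac1 was 1.28, 1.21 and 1.45 in PBS, 1.81, 1.7 and 1.85 in dsHMGB1 and 0.796, 0.801 and 0.837 in LPS/IFNγ, with 1.3 to 1.38 in LPS and 1.26 to 1.32 in frHMGB1. Rac2 was thus above Rac1 in every condition but LPS/IFNγ, with the limit that 50.3% of the 50-base words of Rac1 are shared with Daglb, which overlaps it on the other strand.

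**Figure D5:**
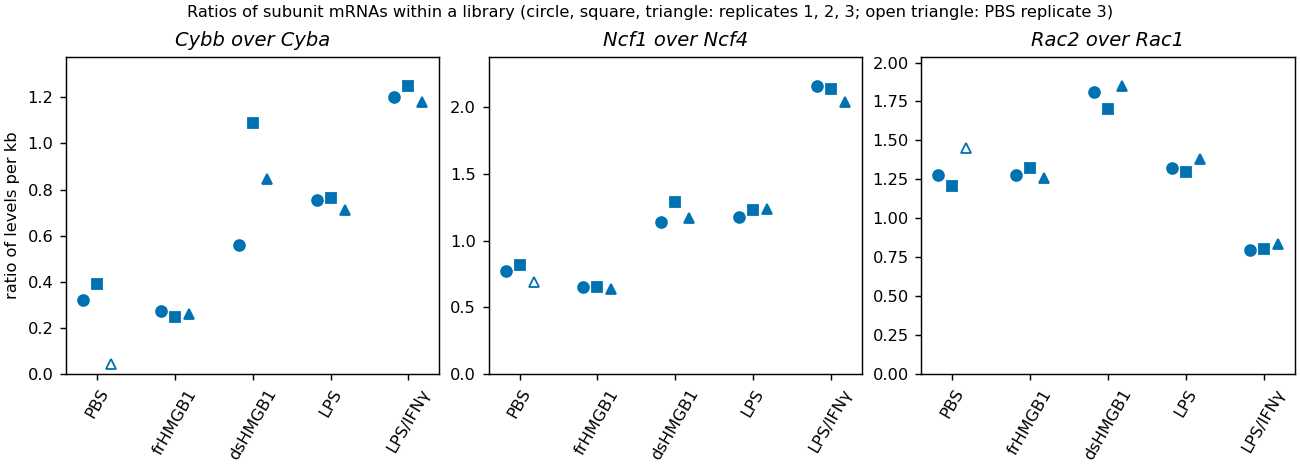
Ratios of levels per kb of exon within each library (y axes from 0), for Cybb over Cyba, Ncf1 over Ncf4 and Rac2 over Rac1, with circles, squares and triangles for replicates 1, 2 and 3 and an open triangle for PBS replicate 3. LPS/IFNγ has the highest Cybb over Cyba (1.18 to 1.25) and Ncf1 over Ncf4 (2.04 to 2.16) and the lowest Rac2 over Rac1 (0.796 to 0.837).

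Other parts of the complex were followed beside the 5 subunits. Rac1 rose, with log2FC of 0.22 in dsHMGB1 (SE 0.05, edgeR adjusted p 0.0195), 0.50 in LPS and 0.53 in LPS/IFNγ. Rap1a, a GTPase found with the membrane core, rose with 0.40, 0.36 and 0.50. Cybc1, a chaperone needed for the stability of the core, was lower in LPS, with -0.27 (SE 0.10, edgeR adjusted p 0.00613), and was not called in dsHMGB1 (-0.17) or LPS/IFNγ (-0.17). In frHMGB1 none of these 3 was called by edgeR (DESeq2 called Rap1a, with 0.31), and without PBS replicate 3 Rap1a (0.27) was called higher.

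Of 9 other NADPH oxidases and dual oxidases and their partners, 3 passed the filter on low counts. Nox1, the oxidase of colon epithelium, was called higher in all of dsHMGB1, LPS and LPS/IFNγ, from 14 reads summed over the PBS libraries to 470, 468 and 684. Its normalized count was 2.96 ± 3.17 in PBS and 229 ± 16.3 in LPS/IFNγ (SD, n = 3), against 249150 ± 3152 for Cybb. Nox4 and Noxo1 had 70 and 131 reads over all 15 libraries and were not called against PBS with all libraries, and Noxo1 was called lower in these 3 stimulations without PBS replicate 3. Noxa1 had 0 reads, and Nox3, Duox1, Duox2, Duoxa1 and Duoxa2 had 2 to 34.

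Among 19 regulators of the assembly of the complex (kinases, exchange factors, phospholipase and others), 10 were called higher and 0 lower in dsHMGB1, 10 and 5 in LPS, and 10 and 4 in LPS/IFNγ. Over all genes 23.3% were called higher and 24.2% lower in dsHMGB1, 26.7% and 36.2% in LPS, and 29% and 31.2% in LPS/IFNγ. The median log2FC of the list was 0.57, 0.84 and 0.53, where that of all genes was -0.10, -0.21 and -0.12. Pla2g4a, the phospholipase that releases arachidonic acid, rose with 2.95 (SE 0.29, edgeR adjusted p 4.2e-06) in dsHMGB1. Tiam1, an exchange factor that loads Rac with GTP, rose with 3.46 (SE 0.29) in LPS/IFNγ and had 0.00 in dsHMGB1, or -0.34 and called lower without PBS replicate 3. Hvcn1, the proton channel that balances the charge moved by the oxidase, had 12142 ± 294 normalized counts in dsHMGB1, 6506 ± 2112 in PBS and 3579 ± 121 in LPS/IFNγ. It was called higher in dsHMGB1 (0.90, SE 0.18) and lower in LPS/IFNγ (-0.86, SE 0.18), and both calls were also made without PBS replicate 3 (1.20 and -0.57). Without that library the counts for the list were 11 higher and 4 lower in dsHMGB1, 11 and 7 in LPS, and 10 and 7 in LPS/IFNγ, and the median log2FC was 0.46, 0.65 and 0.30. Over all genes 29.8% were then called higher and 29% lower in dsHMGB1, 32.9% and 38.3% in LPS, and 33.3% and 34.4% in LPS/IFNγ.

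Of 10 genes listed for the supply of NADPH, the electron donor, 7 were called lower in LPS/IFNγ. The list also holds enzymes of the pentose phosphate pathway that do not make NADPH themselves. In dsHMGB1 2 were called higher and 2 lower, near the 23.3% and 24.2% of all genes. In LPS these counts were 0 and 5, beside 26.7% and 36.2% of all genes, and in LPS/IFNγ 1 and 7, beside 29% and 31.2%. The median log2FC was -0.27, -0.50 and -0.86, where that of all genes was -0.10, -0.21 and -0.12. Idh1, the cytosolic isocitrate dehydrogenase, had the deepest fall, from 20797 ± 1701 normalized counts in PBS to 4327 ± 49 in dsHMGB1 and 2426 ± 119 in LPS/IFNγ. Nadk, the kinase that makes NADP, rose with 1.02 (SE 0.16, edgeR adjusted p 0.000212) in dsHMGB1. Pgd, an enzyme of the pentose phosphate pathway, was called higher in dsHMGB1 (0.54) and in LPS/IFNγ (0.35, SE 0.17, edgeR adjusted p 0.0461). Without PBS replicate 3 the counts were 3 and 3 in dsHMGB1, 1 and 5 in LPS, and 1 and 8 in LPS/IFNγ, with a median log2FC of 0.06, -0.21 and -0.61. Over all genes 29.8% were then called higher and 29% lower in dsHMGB1, near the counts of this list. In LPS the shares were 32.9% and 38.3%, and in LPS/IFNγ 33.3% and 34.4%.

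Of 14 genes that remove superoxide and peroxide, 5 were called higher and 4 lower in dsHMGB1, 6 and 5 in LPS, and 6 and 6 in LPS/IFNγ, with a median log2FC of 0.01, -0.02 and 0.11. Over all genes 23.3% were called higher and 24.2% lower in dsHMGB1, 26.7% and 36.2% in LPS, and 29% and 31.2% in LPS/IFNγ. The counts called lower in dsHMGB1 and LPS were near these shares. Sod2, the mitochondrial superoxide dismutase, rose from 3616 ± 1778 to 48546 ± 4960 normalized counts in dsHMGB1 and 74659 ± 1858 in LPS/IFNγ. Sod1, the cytosolic dismutase, and Gpx1, a peroxidase, were called lower in dsHMGB1, with -1.41 (SE 0.45) and -1.23 (SE 0.34), values that shrank to -0.24 and -0.48 without PBS replicate 3. Without that library the median log2FC of the list was 0.43, 0.64 and 0.75, and the counts were 7 and 4, 9 and 3, and 8 and 6. Over all genes 29.8% were then called higher and 29% lower in dsHMGB1, 32.9% and 38.3% in LPS, and 33.3% and 34.4% in LPS/IFNγ.

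Of 10 transcription factors known to act on NOX2 genes, 9 passed the filter and Cebpe did not. All 9 were called higher in dsHMGB1 and in LPS, and 8 in LPS/IFNγ, where Cebpb had 0.50 (SE 0.35, edgeR adjusted p 0.177) and joined them without PBS replicate 3. Of all genes, 23.3%, 26.7% and 29% were called higher in these comparisons. The median log2FC was 1.81, 2.43 and 2.24, and 1.76, 2.63 and 2.19 without PBS replicate 3. Irf1 rose with 4.29 (SE 0.13, edgeR adjusted p 1.05e-11) in dsHMGB1. Irf8 had 13807 ± 565 normalized counts in PBS, 26855 ± 1010 in dsHMGB1 and 101511 ± 4942 in LPS, and it reached 426729 ± 11416 in LPS/IFNγ. In frHMGB1, 0 of the 55 tested genes of these 5 lists were called by edgeR in either direction with all libraries, 5 had an unadjusted p under 0.05, and DESeq2 called 4. This rested on PBS replicate 3. Without it, edgeR called 8 of the 14 genes that remove superoxide and peroxide, 4 of the 9 transcription factors, 3 of the 10 genes of NADPH supply and 2 of the 19 regulators higher, and 1 gene of NADPH supply lower, beside 8.41% of all genes higher and 9.09% lower.

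Ncf4 and Rac2, which differed between the same conditions, lie 296586 bases apart on chromosome 15. Of 15 genes of the table between them, 6 were tested. In LPS/IFNγ against LPS, where Ncf4 and Rac2 were lower, the cytokine receptor chains Csf2rb and Csf2rb2 were higher, with log2FC of 2.10 (SE 0.14) and 2.31 (SE 0.19). C1qtnf6 was lower as well, with -0.47 (SE 0.17, edgeR adjusted p 0.0414), and Kctd17, Mpst and Tst were not called.

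The genes most like each subunit were sought by Pearson's r of log2(normalized count + 1) over the 15 libraries among 10102 protein-coding genes. The libraries fall into conditions, so a high r means a similar course over conditions and is given as a description. For Cybb they were Sppl2a (0.9978), Cpd and Dcbld2, and Cd47 (0.9915) and Gm21188 (0.9915) were among the 3 most like Ncf1. For Cyba they were Ndufa2 (0.9952), Ndufa11 and Timm13, 3 genes that were chosen with PBS replicate 3 in the data, and of which 1 stayed among the first 3 without it. For Ncf4 they were Prmt1 (0.9739), Tmem176b and Usp21, with Rac2 in rank 4 (0.96). For Rac2 they were Ly9 (0.9727), Bysl and Gsr, with Ncf4 in rank 6. Cybb and Ncf1 had an r of 0.92 with each other (0.98 without PBS replicate 3), whereas Cybb had 0.10 with Ncf4 and 0.33 with Rac2. Cyba had 0.54 with Ncf4, 0.40 with Rac2, -0.40 with Cybb and -0.05 with Ncf1. Without PBS replicate 3 these values of Cyba were 0.84, 0.78, 0.14 and 0.27. By Spearman's rho, Rac2 was the gene most like Ncf4 (0.99).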

How the data were processed

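The authors prepared stranded mRNA libraries from total RNA, sequenced them in paired-end mode, mapped them with STAR on GRCm38 and used DESeq2. The deposited table holds raw counts of reads per gene, without normalization or filter, for 15 libraries. How reads were assigned to genes is not given in the sources used here. Identifiers were matched to GENCODE M21 (51661 of 51763 found).

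Genes passing edgeR's filterByExpr (near 10 counts in at least as many libraries as a condition has, and 15 over all) were tested in edgeR 4.0.16 (R 4.3.3) by its quasi-likelihood F test with TMM factors, all 15 libraries in 1 fit and no covariates. Called genes have a Benjamini-Hochberg adjusted p under 0.05 over all 16919 genes tested. Normalized counts, unshrunken log2 fold changes, SE and 95% Wald intervals are from DESeq2 1.42.0. Lengths and coordinates are from GENCODE M21, and promoters from RefSeq (GRCm38.p6), whose table held Cybb, Cyba and Ncf1 but not Ncf4 or Rac2. Scripts were tested on simulated counts for dsHMGB1 against PBS, where edgeR called 98% of genes changed 3-fold and 9% of those changed 1.5-fold. The simulation drew its spread from a trend fitted to all genes tested, so these shares are not the power for a single subunit. A subunit that is not called can still have a change of any size within its 95% interval.

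The subunits and gene lists were chosen with earlier results of these data known. All subunits and Rac1, Rap1a and Cybc1 of the other parts of the complex are named, and of each other list the called genes with the largest rise and fall in dsHMGB1 and LPS/IFNγ against PBS whose mean over the libraries reached 100 normalized counts. Some genes and 1 motif within the rule are not reported here. Noxo1, the other oxidases, Cebpe and Cebpb, Gtf2ird2, Daglb and the genes between Ncf4 and Rac2 were named outside that rule, after their values were seen. Alternatives were another test, 3 other scalings, 2 other filters, fits of protein-coding genes only or of the compared conditions only, a replicate block, and leaving out each library. The fold changes and list counts without PBS replicate 3 were added after that library was seen to stand apart. Replicates differed beyond sampling noise in every pair (chi-square per degree of freedom at least 4.489).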

Additional observations from a re-analysis of the deposited data

How the results depend on the processing

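Over the 8 comparisons, single subunits kept their call, without a reversal of a called value, in 913 of 960 combinations with an alternative. A change of sign where neither fit called the subunit counts among these, as for Cyba in LPS/IFNγ against PBS without PBS replicate 3 (edgeR log2FC 0.02). Reversals that involved a call came from PBS replicate 3 and from scaling to library size alone. Without PBS replicate 3, Cyba turned to 0.45 in frHMGB1, 0.44 in dsHMGB1 and 0.59 in LPS against PBS (edgeR log2FC), and over the fits that leave out 1 library its lowest values were -0.86, -0.87 and -0.75, each without PBS replicate 2. With library size alone, Ncf4 and Rac2 in LPS against PBS turned to -0.22 and -0.16. That scaling gave 2653 genes higher and 9458 lower in LPS against PBS, where TMM gave 4515 and 6121.

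Subunits called higher in LPS against PBS numbered 2 with upper-quartile factors and 2 with library size alone, which also called 1 lower. Upper-quartile factors called 3610 of 16919 genes higher and 7629 lower in this comparison. Those called lower in LPS/IFNγ against PBS (1 with all libraries) numbered 0 with RLE factors, without a filter or with only the compared conditions fitted, and 3 with upper-quartile factors, with library size alone or at 1 CPM in 3 libraries. Of all genes, the first 3 settings called 5150 of 16919, 4657 of 29051 and 3555 of 15863 lower. The last 3 called 6872 of 16919, 8782 of 16919 and 4731 of 12797 lower. Leaving out 1 library each gave 0 to 3, namely 0 without LPS/IFNγ replicate 1 or 2, 2 without PBS replicate 1 and 3 without PBS replicate 2. In that order, these fits called 4681 of 17299, 4701 of 17301, 5390 of 17194 and 5503 of 17242 genes lower. In dsHMGB1 against frHMGB1, 2 were higher with library size alone, which called 3337 of 16919 genes higher and 6340 lower. In dsHMGB1 against LPS, 3 were higher with library size alone and 3 with only these conditions fitted. These settings called 4661 of 16919 and 3761 of 14872 genes higher, where the main fit called 2670 of 16919. In LPS/IFNγ against LPS, 1 was higher with only these conditions fitted, Cybb, and Cyba was called lower in that fit (edgeR log2FC -0.55, adjusted p 1.65e-11). It called 4564 of 14738 genes higher and 4435 lower, where the main fit called 2765 and 1583 of 16919. Cyba was also called higher in dsHMGB1 against LPS/IFNγ with only these conditions fitted (0.40, adjusted p 0.00677), a fit that called 4296 of 15494 genes higher. Leaving out 1 library each gave 0 to 3 subunits higher in frHMGB1 against PBS, 0 to 3 in dsHMGB1 against LPS and 2 to 4 in dsHMGB1 against LPS/IFNγ, the highest value being without PBS replicate 3 in each case. Without that library 8.41%, 25.6% and 27.9% of all genes were called higher in these comparisons. With the longest transcript as length, 3 of the 5 subunits kept their place in the PBS order. The cause of these changes was not tested.

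With the replicate block, 4 subunits were called higher in dsHMGB1 against PBS, beside 3856 of 16919 genes, and no call of a subunit changed in any comparison. Same-numbered libraries did not deviate together (correlations of deviations from the condition means of -0.3795 to 0.3714), and a library correlated best with its own number in 24 of 60 cases, so the numbers were not treated as pairs. The genes most like each subunit changed in 9 of 10 alternatives. Raw counts of 7606 or more for each subunit in every library leave little counting error, and the limit is the spread between libraries of 1 pool.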
